A study of Danio rerio with 12 samples.

Results

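Bone morphogenetic proteins (BMPs), TGF-beta and activin ligands, their receptors, Smads and antagonists, and the Id and Msx genes were followed in cells sorted from the adult zebrafish brain. The genes were chosen by name, with earlier results of these data known. Of 58 listed symbols, 57 matched the deposited count table, and every copy was taken where the table drops the paralog letter. That gave 64 genes of 31953 in the table. The listed gene msx1a had no match, and 7 of the 64 are paralogs or second copies that came in with a shared symbol: bmp1b, a second inhbb, acvr1bb, tgfbr2a, smad4b, grem1b and grem2a.

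Fish of the line Tg(her4.1:EGFP), in which the her4.1 promoter drives green fluorescent protein (GFP) in radial glia, were injected in the brain ventricle at 6 months of age. The peptide was amyloid-β42 (AB42) or the control that the labels call CPP, and brains were dissociated 48 h later and sorted by GFP. The 4 groups, of 3 libraries each, were AB42 GFP-positive cells, CPP GFP-positive cells, AB42 GFP-negative cells and CPP GFP-negative cells. All groups carried the transgene, and no group without an injection was used here.

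BMPs and TGF-beta family ligands bind pairs of type I and type II serine/threonine kinase receptors. The type I receptor phosphorylates receptor Smads, which are Smad1, Smad5 and Smad9 for BMPs and Smad2 and Smad3 for TGF-beta and activin. These join Smad4 and enter the nucleus. The Id genes are direct BMP targets in many cell types, and Id proteins hold E proteins and their partner bHLH factors away from DNA. In the adult zebrafish telencephalon, id1 is known from radial glia, the neural stem cells of that tissue.

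Total counts ran from 9262838 to 15584769 per library. The transcript behind the reporter, her4.1, stood at 1818 to 2461 CPM (read counts scaled for depth by TMM) in GFP-positive libraries and at 28.2 to 33.6 CPM in GFP-negative ones, and all 10 tested radial glia markers were higher and all 13 neuronal markers lower in GFP-positive cells after both injections. Libraries of 1 group differed by more than counting noise in every pair. The labels do not tell whether replicates are separate fish, so p-values measure the spread between libraries, which may be technical. Each library is a bulk sample, in which a change in the number of cells of a type and a change in RNA per cell cannot be told apart. Tests were edgeR's quasi-likelihood test on counts over 20237 genes with Benjamini-Hochberg adjustment, and a gene was called at an adjusted p under 0.05. Of the 64 genes, 57 passed the filter on low counts. The 7 that did not were bmp5, bmp7a, the second inhbb, bmpr1bb, nog1, grem1a and grem1b, each with 18 to 78 counts summed over all 12 libraries.

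Per exon length, Id genes held the first places in each fraction, though not all of them did. In AB42 GFP-positive cells id1 averaged 293 ± 24.2 RPKM (CPM per kilobase of exon, SD, n = 3), id2a 216 ± 16.8 RPKM, id2b 142 ± 9.29 RPKM and id3 56.4 ± 3.82 RPKM. The next 3 in that group were smad5 at 31.6 ± 2.88 RPKM, nog2 at 31.5 ± 6.97 RPKM and bmp1b at 31.1 ± 0.929 RPKM, which differed from each other by less than the SDs of smad5 and nog2. In the same group id4 averaged 12.7 ± 2.79 RPKM, below all 3 of these. In AB42 GFP-negative cells the order was another one, with id2a first at 86.4 ± 2.54 RPKM, then id4 at 58.3 ± 1.90 RPKM and id3 at 42.8 ± 1.62 RPKM. There id1 averaged 9.31 ± 1.33 RPKM, below smad3a at 11.6 ± 0.853 RPKM. That order is uncertain, since exons of id1 overlap a gene on the opposite strand and the use of strand in counting is not known. In CPP cells the first 3 genes of each fraction were the same and in the same order, with id1 at 266 ± 30.8 RPKM and id2a at 217 ± 15.5 RPKM in CPP GFP-positive cells.

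**Figure D1:**
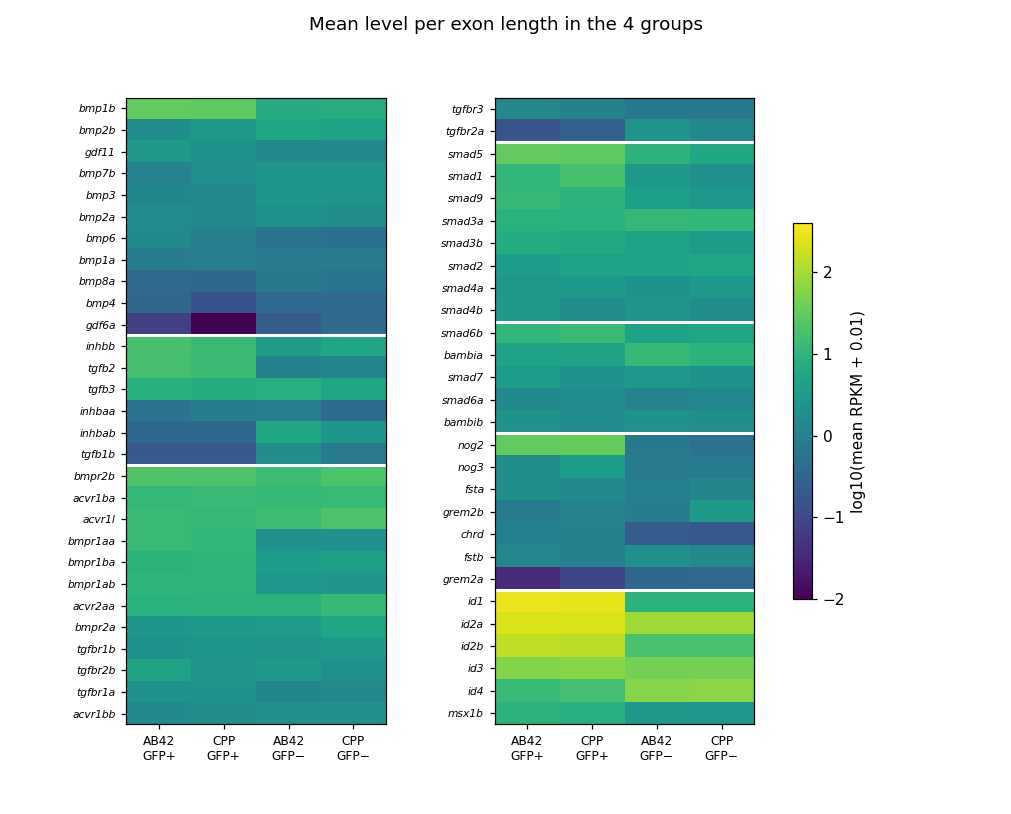
Mean level of the 57 tested genes per exon length, as log10 of mean RPKM plus 0.01, in the 4 groups (columns, n = 3 libraries each); white lines part the roles. The Id genes id1, id2a and id2b are the brightest rows in the GFP-positive columns, and id4 is brighter in the GFP-negative ones.

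The Id genes and msx1b were all called between the sorted fractions with TMM, and id4 ran against the others. Most genes differed as well: beside these 6, 73.7% of all genes were called after AB42 and 73% after CPP. Libraries of the fractions did not overlap for any of the 6, beside 75.8% and 74.1% of all genes without overlap. The gene id1 (ENSDARG00000040764; GRCz10 chromosome 11, 18541849 to 18542961, minus strand) had 279, 282 and 323 CPM in AB42 GFP-positive libraries, against 8.75, 8.46 and 10.9 CPM in AB42 GFP-negative ones. In the CPP fish it had 270, 236 and 298 CPM in GFP-positive libraries, against 9.34, 9.77 and 9.29 CPM in GFP-negative ones. Every GFP-positive library lay above every GFP-negative library. The fitted difference between the groups was 31.4-fold after AB42 (log2 fold change 4.97 ± 0.10 SE, edgeR adjusted p = 2.46e-32) and 28.3-fold after CPP (4.82 ± 0.10, edgeR adjusted p = 7.19e-32). Of the 1006 exon bases of id1, 491 are shared with a gene on the opposite strand, ENSDARG00000096939, and the sources used here do not say whether the counting used strand. Exons of 7 members in all overlap another gene. Besides id1 these are bmp3, bmpr1aa, bmpr2a, smad9 (737 of 3229 bases, opposite strand), chrd and nog1.

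The gene id2b had 201, 198 and 223 CPM in AB42 GFP-positive libraries, against 29.3, 27.1 and 27.3 CPM in AB42 GFP-negative ones. Its difference was 7.44-fold after AB42 (log2 2.89 ± 0.08) and 6.98-fold after CPP (2.80 ± 0.08). Its paralog id2a had 392, 374 and 434 CPM in AB42 GFP-positive libraries, against 159, 157 and 166 CPM in AB42 GFP-negative ones, and was 2.49-fold higher in GFP-positive cells after each injection. The 2 copies thus sit in the same fraction at different contrasts, and no library of one fraction overlapped the other for either copy.

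The smallest difference was that of id3, which had 69.0, 60.8 and 67.9 CPM in AB42 GFP-positive libraries, against 48.7, 49.2 and 52.2 CPM in AB42 GFP-negative ones. It was higher by log2 0.40 ± 0.08 after AB42 and 0.53 ± 0.08 after CPP. With library totals in place of TMM it passed after neither injection, at 0.14 after AB42 and 0.05 after CPP, so the call of id3 depends on the scaling. The homeobox gene msx1b, another common BMP target, was 3.01-fold higher in GFP-positive cells after AB42 and 2.76-fold higher after CPP.

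In contrast, id4 (chromosome 16, 10086956 to 10089500, minus strand) had 12.6, 13.9 and 18.9 CPM in AB42 GFP-positive libraries, against 68.5, 67.9 and 72.0 CPM in AB42 GFP-negative ones. In the CPP fish it had 19.1, 16.8 and 22.9 CPM in GFP-positive libraries, against 80.7, 68.7 and 74.6 CPM in GFP-negative ones. It was 4.65-fold lower in GFP-positive cells after AB42 (log2 -2.22 ± 0.11, edgeR adjusted p = 1.96e-19) and 3.82-fold lower after CPP (-1.93 ± 0.11, edgeR adjusted p = 3.18e-18). Of the 4 Id genes and paralogs besides it, none was lower.

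**Figure D2:**
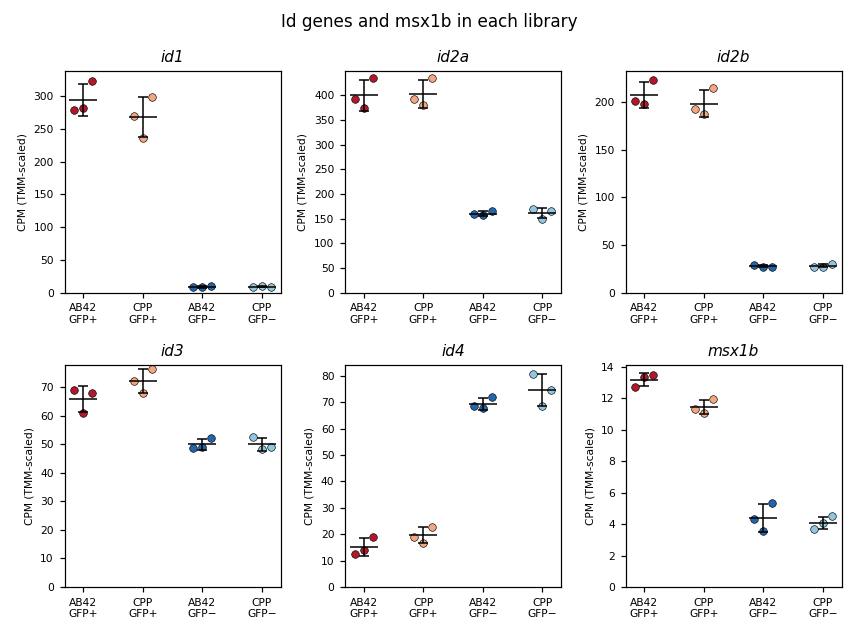
CPM after TMM scaling of 5 Id genes and msx1b in each of the 12 libraries (points), with mean ± SD (bars, n = 3) for AB42 GFP-positive, CPP GFP-positive, AB42 GFP-negative and CPP GFP-negative cells. For id1, id2a, id2b, id3 and msx1b all GFP-positive libraries lie above all GFP-negative ones; for id4 they lie below.

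After AB42, 1 of the 6 Id and Msx genes was called in GFP-positive cells, beside 18.7% of all genes in that comparison. It was id4, which was 1.31-fold lower (log2 -0.39 ± 0.13, edgeR adjusted p = 0.0275). The AB42 library at 18.9 CPM overlapped the CPP range of 16.8 to 22.9 CPM, and id4 no longer passed without AB42 replicate 1 (-0.27) or 2 (-0.33) or CPP replicate 1 (-0.40) or 3 (-0.26), nor with library totals (-0.29) or the 2 groups alone (-0.34). For id1 the difference was 0.14 ± 0.07 (95% interval -0.01 to 0.28, edgeR adjusted p = 0.208), which passed with library totals (0.23), with the replicate number as a block (0.14) and without CPP replicate 3 (0.22). For id2a the interval of the AB42 effect ran from -0.14 to 0.12, and for id2b from -0.07 to 0.20. For id3 it ran from -0.29 to 0.03.

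In GFP-negative cells none of the 6 was called, beside 38.2% of all genes; none had an unadjusted p under 0.05 in edgeR, and DESeq2 called 0. Their log2 fold changes lay between -0.10 (id4) and 0.08 (msx1b). The 95% intervals of id2a (-0.14 to 0.12), id3 (-0.15 to 0.17) and id2b (-0.19 to 0.14) were the narrowest of the 6. With library totals id2a (-0.15) and id4 (-0.24) passed as lower, in a scaling under which the median of all genes was -0.14, against -0.01 with TMM. Among the Id and Msx genes 0 differed in their AB42 effect between the fractions, beside 21.9% of all genes; 0 had an unadjusted p under 0.05 and DESeq2 called 0, while with library totals id1 (0.38), id2a (0.23) and id2b (0.32) passed.

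Across all roles, after AB42 26 of the 57 tested genes stood higher in GFP-positive than in GFP-negative cells and 14 lower; over all genes 36% were called higher and 37.7% lower. After CPP 25 were higher and 15 lower, beside 37.1% and 35.9% of all genes. Their called share, 70.2% after each injection, was thus near that of all genes (73.7% after AB42, 73% after CPP). Libraries of the fractions did not overlap for 39 of the 57 after AB42 and 36 after CPP, beside 75.8% and 74.1% of all genes. The median log2 fold change of the 57 was 0.30 after AB42 and 0.14 after CPP, beside -0.01 and 0.01 over all genes. With library totals the counts were 23 higher and 20 lower after AB42, and 17 higher and 24 lower after CPP. The comparisons of fractions share their libraries with the AB42 comparisons, so the values of each are given side by side only.

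**Figure D3:**
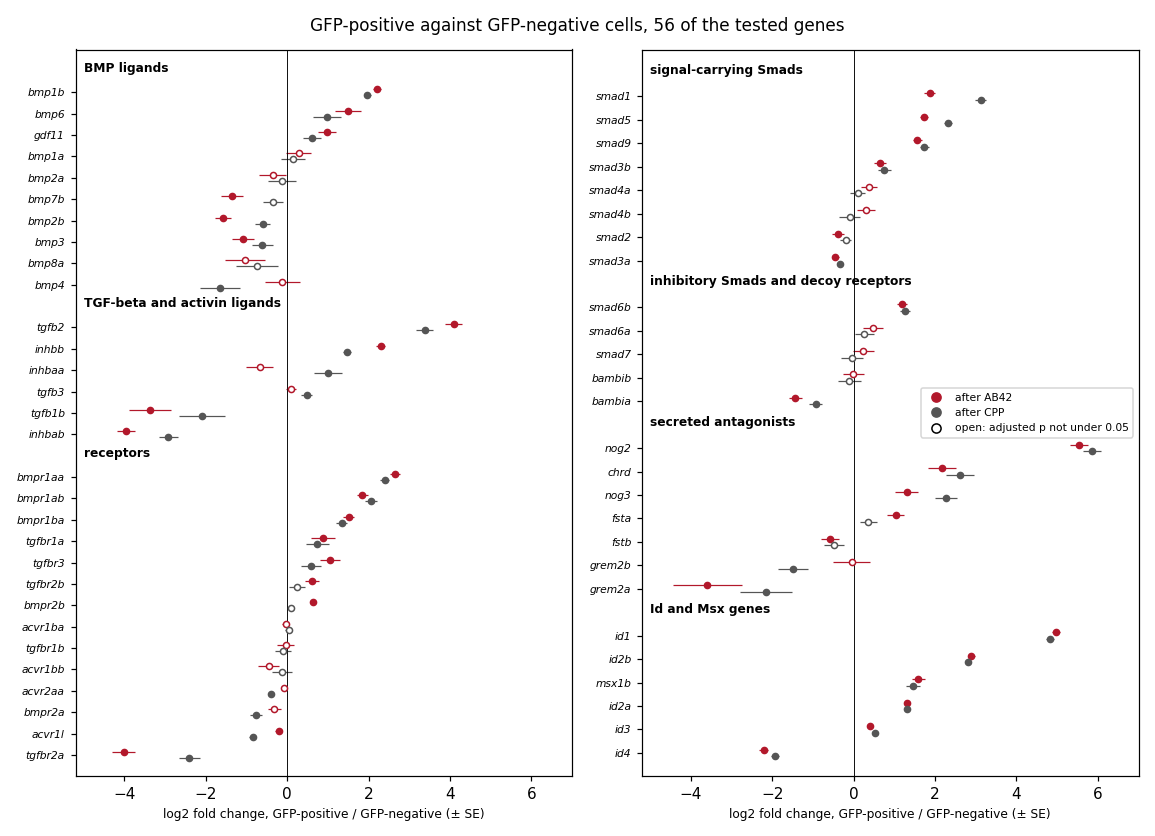
Log2 fold change of GFP-positive against GFP-negative cells (± SE) after AB42 (red) and after CPP (grey) for the tested genes by role, without gdf6a, which had 0 counts in CPP GFP-positive cells; open points were not called. The largest rises are nog2, id1 and tgfb2, and the largest falls tgfbr2a and inhbab.

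Of the 11 tested genes of the BMP ligand list, which also holds proteases and gdf genes, 3 were higher in GFP-positive cells and 4 lower, after each injection. The called share was 63.6% each time, beside 73.7% of all genes after AB42 and 73% after CPP. The highest per length was bmp1b, whose family of metalloproteases cleaves Chordin and procollagen and is no ligand; it averaged 117 ± 3.51 CPM in AB42 GFP-positive cells and 25.3 ± 1.57 CPM in AB42 GFP-negative cells, 4.63-fold higher. The others that were higher in GFP-positive cells were bmp6 (log2 1.49 ± 0.32 after AB42, 0.98 ± 0.35 after CPP) and gdf11 (0.98 ± 0.22 and 0.61 ± 0.22). The ligand gene bmp2b ran the other way, with 4.84, 2.92 and 3.59 CPM in AB42 GFP-positive libraries, against 10.7, 13.1 and 9.87 CPM in AB42 GFP-negative ones (log2 -1.57 ± 0.20, edgeR adjusted p = 9.48e-09). After CPP the difference of bmp2b was -0.60 ± 0.19. The gene bmp3 was lower in GFP-positive cells after both injections (-1.09 ± 0.27 and -0.61 ± 0.26), bmp7b after AB42 and bmp4 after CPP. Among the calls after CPP, that of bmp6 was lost without GFP-positive replicate 1 (0.87) or 2 (0.77) or GFP-negative replicate 1 (0.70) or 3 (0.72) and with library totals (0.50). That of gdf11 was lost without GFP-negative replicate 2 (0.44) or 3 (0.56) and with library totals (0.13), and that of bmp3 without GFP-positive replicate 1 (-0.39) or GFP-negative replicate 3 (-0.48). For gdf6a, which had 0 counts in CPP GFP-positive cells, the level was at least 3.95-fold lower than in CPP GFP-negative cells, at a floor of 3 counts per library that covers counting error only. After AB42 the fractions overlapped for gdf6a (log2 -1.92 ± 0.86), and its call was lost with DESeq2 (-1.81) and without GFP-positive replicate 1 (-1.62) or 2 (-1.27) or GFP-negative replicate 2 (-0.86) or 3 (-1.97).

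Of the 6 TGF-beta and activin ligand genes, 2 were higher in GFP-positive cells and 2 lower after AB42, and 4 were higher and 2 lower after CPP. That was 66.7% called after AB42 and 100% after CPP, beside 73.7% and 73% of all genes. The gene tgfb2 had 23.5, 23.2 and 18.4 CPM in AB42 GFP-positive libraries, against 1.58, 1.34 and 0.897 CPM in AB42 GFP-negative ones. It was 17.0-fold higher after AB42 (log2 4.09 ± 0.21, edgeR adjusted p = 1.80e-19) and 10.4-fold higher after CPP. The activin subunit gene inhbb was also higher in GFP-positive cells, by 4.92-fold after AB42 and 2.77-fold after CPP. In the opposite direction, the activin subunit gene inhbab had 0.751, 0.949 and 1.20 CPM in AB42 GFP-positive libraries, against 15.5, 14.2 and 15.1 CPM in AB42 GFP-negative ones (15.6-fold lower). After CPP inhbab was 7.57-fold lower. The gene tgfb1b was lower in GFP-positive cells too, by 10.4-fold after AB42 and 4.25-fold after CPP, on 178 counts in all. Of these, 8 were in AB42 GFP-positive and 9 in CPP GFP-positive libraries, on average at or below the floor of 3 counts per library. It passed the filter on low counts through its GFP-negative libraries, so a fall was the only direction open to it and its size is uncertain. The genes tgfb3 and inhbaa were called after CPP only. For tgfb3 the log2 fold change was 0.10 ± 0.13 after AB42 and 0.48 ± 0.13 after CPP, where the call was lost without GFP-negative replicate 2 (0.29) and with library totals, which turned its sign (-0.0020). For inhbaa it was -0.68 ± 0.33 after AB42 and 1.004 ± 0.34 after CPP, where the call was lost without GFP-positive replicate 3 (0.68) or GFP-negative replicate 1 (0.68) and with library totals (0.52).

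Of the 14 tested receptor genes, 7 were higher in GFP-positive cells and 2 lower after AB42. After CPP 5 were higher and 4 lower. The called share was 64.3% each time, beside 73.7% of all genes after AB42 and 73% after CPP. Leaving out 1 library gave 3 to 4 receptors higher and 4 to 5 lower after CPP, and DESeq2 called 7 there. The type I BMP receptor genes bmpr1aa, bmpr1ab and bmpr1ba stood 2.52-fold to 6.27-fold higher in GFP-positive than in GFP-negative cells after both injections. The type I receptor gene acvr1l ran the other way after CPP, with means of 50.6 CPM in GFP-positive and 90.9 CPM in GFP-negative cells. For acvr1l, bmpr2a and acvr2aa every CPP GFP-positive library lay below every CPP GFP-negative one. The largest fall among receptors was that of tgfbr2a, a type II TGF-beta receptor gene, with 0.584, 0.711 and 0.761 CPM in AB42 GFP-positive libraries, against 12.7, 11.7 and 9.11 CPM in AB42 GFP-negative ones. It was 16.2-fold lower after AB42 and 5.28-fold lower after CPP. Its paralog tgfbr2b was higher in GFP-positive cells after AB42 (log2 0.61 ± 0.17) and was not called after CPP (0.25 ± 0.19). The call after AB42 was lost with library totals (0.36).

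The Smads that carry BMP signals were higher in GFP-positive cells, and those of TGF-beta and activin were mixed. Of the 8 signal-carrying Smads, Smad4 copies included, 75% were called after AB42 and 62.5% after CPP, beside 73.7% and 73% of all genes. The gene smad1 had 35.1, 38.1 and 27.2 CPM in AB42 GFP-positive libraries, against 8.89, 8.70 and 10.1 CPM in AB42 GFP-negative ones, a 3.65-fold difference. After CPP smad1 was 8.71-fold higher, with 49.2, 58.8 and 55.5 CPM in GFP-positive libraries, against 6.62, 7.64 and 4.76 CPM in GFP-negative ones. The genes smad5 (3.30-fold after AB42, 5.0-fold after CPP) and smad9 (2.97-fold and 3.33-fold) were also higher. For TGF-beta and activin, smad3b was higher after both and smad3a lower after both, by log2 -0.45 and -0.34. With library totals smad3b (0.27) was not called after CPP. The gene smad2 was called lower after AB42 only. It had 13.9, 14.6 and 13.1 CPM in AB42 GFP-positive libraries, against 18.1, 15.2 and 21.5 CPM in AB42 GFP-negative ones. Leaving out 1 library gave 1 to 2 lower Smads in that comparison.

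Of the 5 inhibitory Smads and decoy receptors, 40% were called after each injection, beside 73.7% of all genes after AB42 and 73% after CPP. Of these inhibitors inside the cell and at its surface, smad6b, an inhibitory Smad gene, was 2.28-fold and 2.39-fold higher in GFP-positive cells after AB42 and after CPP. The decoy receptor gene bambia was lower in them after both, with 7.93, 5.69 and 7.39 CPM in AB42 GFP-positive libraries, against 20.1, 17.3 and 19.1 CPM in AB42 GFP-negative ones. Of the 7 tested secreted antagonists, which bind ligands outside the cell, 85.7% were called after AB42 and 71.4% after CPP, beside 73.7% and 73% of all genes. Among them nog2 (Noggin) had the largest fold change of the members with counts in every group. It had 66.6, 47.4 and 74.3 CPM in AB42 GFP-positive libraries, against 1.15, 1.1 and 1.79 CPM in AB42 GFP-negative ones. This was 46.4-fold higher after AB42 (log2 5.54 ± 0.22, edgeR adjusted p = 5.04e-23) and 57.7-fold higher after CPP. The genes chrd (Chordin) and nog3 were higher in GFP-positive cells after both injections, and grem2a (Gremlin) was lower after both. For grem2a 2 counts were in AB42 GFP-positive and 7 in CPP GFP-positive libraries, on average below the floor of 3 counts per library. It passed the filter on low counts through its GFP-negative libraries, so a fall was the only direction open to it.

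In GFP-positive cells 4 of the 57 tested genes were higher and 6 lower after AB42, beside 6.21% and 12.5% of all genes. The called share of the members, 17.5%, was near the 18.7% of all genes. Their median log2 fold change was -0.01, beside -0.06 over all genes. For 16 of the 57 the AB42 and CPP libraries did not overlap, beside 32% of all genes. With library totals 7 were higher and 3 lower, and the split of all genes moved likewise, with 33.2% of calls higher under TMM and 54.4% under library totals. The calls of smad1, tgfbr2b, inhbb and nog3 held in every alternative run.

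The gene smad1 (ENSDARG00000027199; chromosome 1, 35165017 to 35196915, minus strand) fell to 35.1, 38.1 and 27.2 CPM in AB42 GFP-positive libraries, against 49.2, 58.8 and 55.5 CPM in CPP GFP-positive ones. All AB42 libraries lay below all CPP libraries (log2 -0.69 ± 0.12, edgeR adjusted p = 3.01e-05). The gene tgfbr2b rose to 8.93, 12.4 and 10.8 CPM, against 7.03, 5.20 and 4.93 CPM after CPP, also with no overlap (0.90 ± 0.18, edgeR adjusted p = 0.000356).

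The activin subunit gene inhbb had 53.3, 52.6 and 60.4 CPM after AB42, against 37.9, 45.2 and 42.9 CPM after CPP (0.40 ± 0.09, edgeR adjusted p = 0.00204). The Noggin gene nog3 had 3.0, 2.69 and 3.48 CPM after AB42, against 5.69, 4.80 and 6.70 CPM after CPP (-0.91 ± 0.24, edgeR adjusted p = 0.00545). Neither gene's groups overlapped. The BMP ligand gene bmp7b had 1.5, 1.26 and 2.72 CPM after AB42, against 4.03, 3.76 and 2.33 CPM after CPP (-0.94 ± 0.29, edgeR adjusted p = 0.0162). Its groups overlapped, and it no longer passed without AB42 replicate 1 (-0.83) or 2 (-0.72) or CPP replicate 1 (-0.80) or 2 (-0.86).

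The other 4 calls in GFP-positive cells, besides id4, were lost without single libraries as well. The common Smad gene smad4b (0.74 ± 0.24) no longer passed without AB42 replicate 1 (0.78) or 2 (0.69) or CPP replicate 1 (0.67) or 2 (0.75). The BMP Smad gene smad9 (0.30 ± 0.10) no longer passed without AB42 replicate 1 (0.25) or 3 (0.31), when any single CPP library was left out (0.28 to 0.32) or without the filter on low counts (0.28). The ligand gene bmp2b (-0.62 ± 0.22) no longer passed without AB42 replicate 2 (-0.44) or 3 (-0.58) or CPP replicate 2 (-0.44), nor with library totals (-0.52), DESeq2 (-0.61) or the 2 groups alone (-0.57). The gene smad2 (-0.39 ± 0.14) no longer passed when any single AB42 library (-0.43 to -0.35) or CPP replicate 1 (-0.30) or 2 (-0.42) was left out, nor with RLE factors (-0.38), library totals (-0.29), DESeq2 (-0.38) or the 2 groups alone (-0.34). None of the 5 inhibitory Smads and decoy receptors was called here; 1 had an unadjusted p under 0.05 and DESeq2 called 0.

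**Figure D4:**
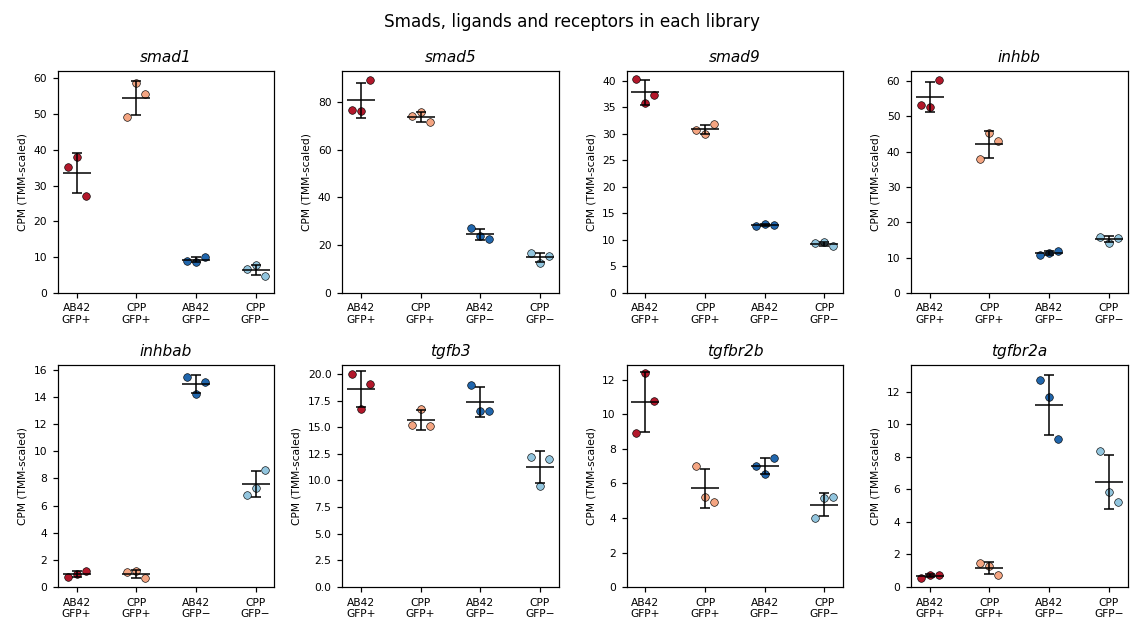
CPM after TMM scaling of 8 genes in each of the 12 libraries (points), with mean ± SD (bars, n = 3), in AB42 GFP-positive, CPP GFP-positive, AB42 GFP-negative and CPP GFP-negative cells. For smad1 the AB42 libraries lie below the CPP ones in GFP-positive cells and above them in GFP-negative cells; inhbb shows the reverse.

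Marker levels moved in the same comparison. In GFP-positive cells after AB42, 10 of 13 neuronal markers were lower (summed level 429 to 442 CPM, against 713 to 725 CPM after CPP) and 5 of 9 oligodendrocyte markers were lower (4262 to 4706 CPM, against 5790 to 6217 CPM). Microglia and macrophage markers were lower in 2 of 9 cases (2196 to 2330 CPM, against 2403 to 2609 CPM), or 1 higher and 1 lower with library totals. Endothelial and mural markers were higher in 2 of 8 (118 to 135 CPM, against 110 to 128 CPM). Most of that sum was notch3, with a mean of 92.9 CPM after AB42 and 92.3 CPM after CPP. In GFP-negative cells notch3 averaged 9.23 CPM after AB42 and 6.84 CPM after CPP. Of 10 markers of meninges, fibroblasts and epithelium 2 were higher and 4 lower (923 to 983 CPM, against 880 to 927 CPM). Most of that sum was dcn, with a mean of 604 CPM after AB42 and 537 CPM after CPP, and krt8 (316 and 207 CPM). The sum hides large falls in the mean of krt5 (12.5 CPM after AB42, 102 CPM after CPP) and cldna (1.03 and 8.48 CPM). The means of cldnb and epcam were lower after AB42 as well. Of 10 tested radial glia markers, 6 were lower and 1 was higher, with a summed level of 39317 to 42005 CPM after AB42, against 46846 to 50169 CPM after CPP. Their part in these results was not tested.

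In GFP-negative cells AB42 changed 16 of the 57: 10 were higher and 6 lower, beside 20.9% and 17.3% of all genes. The called share of 28.1% was below the 38.2% of all genes, and the median log2 fold change was -0.0014, beside -0.0091 over all genes. For 20 of the 57 the libraries did not overlap, beside 48.1% of all genes. With library totals 8 were higher and 14 lower. The 3 BMP Smads and 4 of the 6 TGF-beta and activin ligands were higher, which held with library totals, and 4 of the 14 receptors were lower (6 with library totals).

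Among the ligands of the TGF-beta and activin branch, inhbab rose to 15.5, 14.2 and 15.1 CPM in AB42 GFP-negative libraries, against 6.80, 7.30 and 8.64 CPM in CPP GFP-negative ones. No library overlapped (log2 0.96 ± 0.16, edgeR adjusted p = 6.40e-06). The others that were higher were tgfb3 (0.62 ± 0.13), tgfb1b (1.22 ± 0.37) and inhbaa (1.04 ± 0.33), while inhbb was lower (-0.43 ± 0.11). The libraries of tgfb1b and inhbaa overlapped between the groups. The call of tgfb1b was lost without AB42 replicate 1 (1.05) or CPP replicate 2 (0.90) or 3 (1.08), and that of inhbaa without AB42 replicate 1 (0.91) or 3 (0.76) or CPP replicate 1 (0.77). Of the 11 tested genes of the BMP ligand list, proteases included, 0 were called in this fraction, while 1 had an unadjusted p under 0.05 and DESeq2 called 0.

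The 4 receptor genes that fell after AB42 in GFP-negative cells encode receptors of BMPs and activin. The type II activin receptor gene acvr2aa had 58.9, 56.2 and 60.5 CPM after AB42, against 77.1, 78.5 and 78.2 CPM after CPP (-0.41 ± 0.07, edgeR adjusted p = 1.31e-05). The type II BMP receptor gene bmpr2b had 62.4, 59.4 and 53.6 CPM after AB42, against 79.4, 88.9 and 75.9 CPM after CPP (-0.48 ± 0.08, edgeR adjusted p = 1.69e-05). The type I receptor gene acvr1l had 67.2, 70.4 and 58.3 CPM after AB42, against 81.5, 94.8 and 96.3 CPM after CPP (-0.48 ± 0.09, edgeR adjusted p = 2.07e-05). In all of them every AB42 library lay below every CPP library, and bmpr2a fell likewise (-0.55 ± 0.15). Both type II TGF-beta receptor genes rose instead, tgfbr2a by 0.81 ± 0.19 and tgfbr2b by 0.53 ± 0.18. The call of tgfbr2b was lost without AB42 replicate 3 (0.47) or CPP replicate 1 (0.41) and with library totals (0.40).

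The BMP Smad gene smad5 had 27.1, 23.7 and 22.6 CPM in AB42 GFP-negative libraries, against 16.5, 12.7 and 15.3 CPM in CPP GFP-negative ones. The groups did not overlap (log2 0.73 ± 0.10, edgeR adjusted p = 5.54e-07). The genes smad1 (0.56 ± 0.16) and smad9 (0.46 ± 0.12) rose as well; smad1 lost its call without CPP replicate 3 (0.36). The largest fall was that of grem2b, a Gremlin antagonist gene, with 0.645, 1.03 and 0.483 CPM after AB42, against 3.17, 2.89 and 2.08 CPM after CPP (-1.86 ± 0.36, edgeR adjusted p = 7.93e-05). The decoy gene bambia was higher (0.36 ± 0.14), and its call was lost without AB42 replicate 1 (0.32) or 3 (0.33), when any single CPP library was left out (0.32 to 0.36), with library totals (0.23) and with DESeq2 (0.34).

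The markers of several cell types changed in the same libraries. After AB42 all 9 microglia and macrophage markers were higher in GFP-negative cells, with a summed level of 7708 to 8141 CPM, against 2677 to 2936 CPM after CPP. Of 13 neuronal markers 12 were lower (3442 to 3609 CPM after AB42, against 5523 to 5698 CPM after CPP). Oligodendrocyte markers were higher in 8 of 9 cases (17961 to 18626 CPM, against 14030 to 15338 CPM) and endothelial and mural markers in 6 of 8 (93.4 to 98.0 CPM, against 55.2 to 60.5 CPM), with pdgfrb at 0 counts in all groups. Of the 10 markers of meninges, fibroblasts and epithelium 5 were higher and 2 lower (1490 to 1678 CPM, against 1219 to 1293 CPM), and of 10 tested radial glia markers 3 were higher and 1 lower (2408 to 2439 CPM, against 2200 to 2319 CPM), or 1 higher and 4 lower with library totals. The part of these cell types in the Smad, ligand and receptor changes was not tested.

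The AB42 effect differed between the fractions for 10 of the 57 genes: 4 had the more positive effect in GFP-positive cells and 6 the more negative one, beside 5.46% and 16.5% of all genes (21.9% in either direction, 17.5% of the members). The widest gap by test was that of smad1, whose log2 change was -0.69 in GFP-positive and 0.56 in GFP-negative cells, a difference of -1.26 ± 0.20 (edgeR adjusted p = 7.28e-06). For inhbb the changes were 0.40 and -0.43, a difference of 0.83 ± 0.15 (edgeR adjusted p = 4.94e-05). These genes crossed zero, with called changes of opposite sign in the fractions. The receptor genes acvr1l (0.65 ± 0.13) and bmpr2b (0.55 ± 0.12) had called falls in GFP-negative cells only, and smad5 (-0.60 ± 0.14) and tgfbr2a (-1.62 ± 0.45) called rises there only. The other 4 were inhbaa, bmp2b, acvr2aa and bmp7b. With library totals 14 were higher and 4 lower in this difference, under a shift of the median of all genes to 0.15, against -0.08 with TMM.

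**Figure D5:**
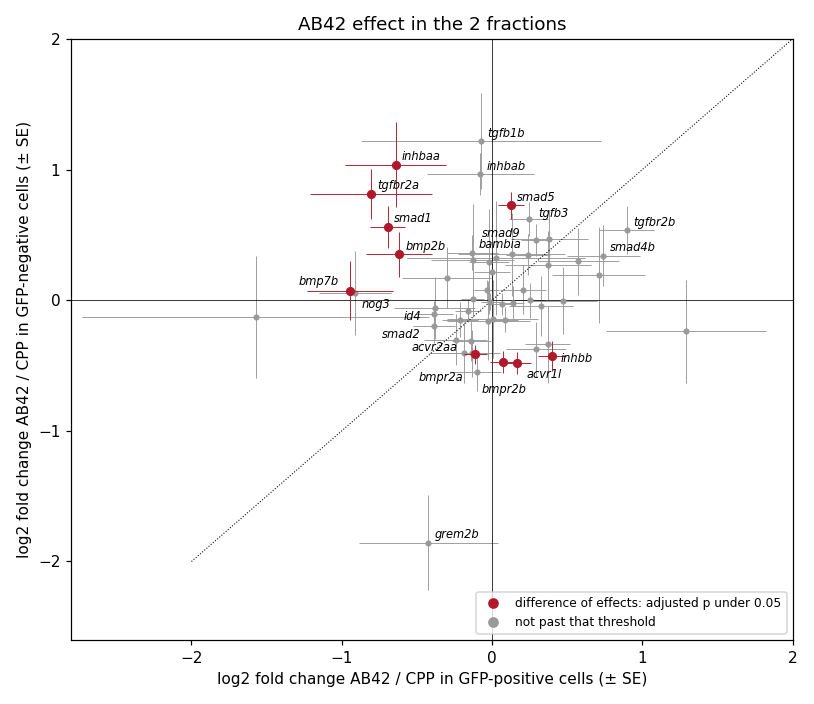
Log2 fold change of AB42 against CPP in GFP-positive cells (horizontal) and in GFP-negative cells (vertical), each ± SE, for the tested genes without gdf6a; the dotted line marks equal effects and red points passed the test of the difference. The 2 comparisons share no library. The gene smad1 lies at -0.69 and 0.56, and inhbb at 0.40 and -0.43.

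Other genes of these pathways were taken from 5 lists with 91 genes, of which 72 were tested. The lists were chosen with earlier results of these data known, so their called shares are a description only. In GFP-positive cells 11 were higher and 6 lower after AB42, and in GFP-negative cells 27 were higher and 8 lower (48.6% called, beside 38.2% of all genes). The 11 became 6 without AB42 GFP-positive replicate 2 or CPP GFP-positive replicate 1, and the 8 became 5 without CPP GFP-negative replicate 2 and 13 with library totals. Of 23 tested target genes, 16 were higher and 0 lower in GFP-negative cells after AB42, beside 20.9% of all genes higher; with library totals 14 were higher and 1 lower. In GFP-positive cells 5 of the 23 were higher and 1 lower, beside 6.21% and 12.5% of all genes. The 5 became 3 without AB42 GFP-positive replicate 1 or 2 and 2 without AB42 replicate 3 or CPP replicate 1 of that fraction, and the 1 became 2 without CPP replicate 2. Among the higher ones, ccn2a, a matricellular growth factor gene, had 362, 376 and 378 CPM after AB42, against 168, 171 and 186 CPM after CPP (log2 1.09 ± 0.06, edgeR adjusted p = 1.74e-16). Some of the targets, col1a1a, col1a2 and acta2, also stand in the marker lists of mesenchymal or mural cells.

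Among the remaining lists, the corepressor gene tgif1 had 443, 450 and 474 CPM in AB42 GFP-positive libraries, against 295, 299 and 319 CPM in CPP GFP-positive ones (0.58 ± 0.06). In GFP-negative cells it had 161, 165 and 169 CPM after AB42, against 82.0, 82.6 and 85.9 CPM after CPP (0.98 ± 0.06). The type I receptor gene acvrl1 (Alk1), known from endothelium, had 22.4, 23.2 and 24.2 CPM in AB42 GFP-negative libraries, against 6.62, 6.81 and 6.56 CPM in CPP GFP-negative ones (1.80 ± 0.14). In GFP-positive cells acvrl1 stood at 5.39 ± 1.09 CPM after AB42 and 5.45 ± 0.126 CPM after CPP, and its AB42 effect differed between the fractions by -1.84 ± 0.23 (edgeR adjusted p = 7.34e-08). The ligand gene tgfb1a was higher in GFP-negative cells (1.15 ± 0.20), and gdf10a (-0.40 ± 0.07) and gdf10b (-0.61 ± 0.11) were lower in GFP-positive cells. In GFP-negative cells gdf10b was called lower as well (-0.66 ± 0.23), with no overlap of libraries. That call was lost without AB42 replicate 1 or 2 or CPP replicate 2 or 3 of that fraction. The AB42 effect differed between the fractions for gdf10a (-0.40 ± 0.11) and tgfb1a (-0.77 ± 0.25).

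Of the 3 tested E protein genes, whose products Id proteins bind, 1 was higher after AB42 in GFP-positive cells, beside 6.21% of all genes, and 2 were lower in GFP-negative cells, beside 17.3% of all genes. The gene tcf3b had 122, 143 and 132 CPM in AB42 GFP-positive libraries, against 108, 121 and 104 CPM in CPP GFP-positive ones, with no overlap (0.25 ± 0.07, edgeR adjusted p = 0.00971). That call was lost without AB42 replicate 2 (0.19) or CPP replicate 1 (0.23) or 3 (0.21). In GFP-negative cells it had 101, 95.8 and 101 CPM after AB42, against 121, 138 and 129 CPM after CPP (-0.39 ± 0.07, edgeR adjusted p = 2.65e-05). Its AB42 effects differed by 0.64 ± 0.10 (edgeR adjusted p = 5.65e-06). The other lower gene in GFP-negative cells, tcf3a, had overlapping groups (-0.33 ± 0.13) and lost its call without AB42 replicate 2 (-0.31) or 3 (-0.28) or CPP replicate 2 (-0.22).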

How the data were processed

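RNA of sorted brain cells was measured in 12 libraries (poly-dT primed cDNA, amplified, single-end reads, per the labels' protocols). The authors deposited whole-number counts for each Ensembl gene, with no scaling. The submitters' processing notes name BWA 0.7.12, featureCounts and the build GRCz10 (danRer10). For strand, annotation release and filters, nothing is given in the sources used here. The deposited table also holds coordinates and exon lengths, which gave RPKM.

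Symbols came from the name table supplied with the files. Paralog letters were set by the chromosome and by the genes shared among 10 neighbours on each side in RefSeq names (GRCz12tu), for 63 of 64 members. Members and lists were chosen with earlier results of these data known. Differences were computed with edgeR 4.0.16 in R 4.3.3: filterByExpr on the 4 groups, TMM, 4 group means fitted over all 12 libraries (8 residual degrees of freedom) and a prior count of 0.125. The SE is the log2 fold change over the square root of F. Amplified reads are not independent molecules, so the floor of 3 counts covers counting error only. Values per library are given for the Id genes, the 6 members with the smallest p in each AB42 comparison and in the difference of effects, and the 4 largest rises and falls between fractions with at least 5 CPM in the higher group. Alternatives were RLE factors, library totals, no filter, DESeq2 1.42.0, the 2 groups alone, a replicate block and leaving out each library. The scripts were tested on simulated data. Sequences were not used here.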

Additional observations from a re-analysis of the deposited data

Results flagged for a closer look

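For 10 members the AB42 effect in GFP-positive cells minus that in GFP-negative cells passed edgeR's test of the difference (adjusted p under 0.05), which is what set them apart for a second look. The difference in log2 fold change was more negative in GFP-positive cells for smad1 (-1.26), smad5 (-0.60), tgfbr2a (-1.62), inhbaa (-1.68), bmp2b (-0.97) and bmp7b (-1.01). It was more positive for inhbb (0.83), acvr1l (0.65), bmpr2b (0.55) and acvr2aa (0.30). For smad1 the 3 AB42 libraries lay below the 3 CPP libraries in GFP-positive cells and above them in GFP-negative cells, and for inhbb above and below. The differences of smad1, inhbb, acvr1l, bmpr2b, smad5 and tgfbr2a passed in all alternatives run. That of inhbaa was lost without AB42 GFP-negative replicate 3 (-1.35), and that of bmp2b with library totals (-0.74) and without AB42 or CPP GFP-positive replicate 2 (-0.79 each). That of acvr2aa was lost with no filter on low counts (0.28) and without 7 single libraries (0.27 to 0.31). That of bmp7b was lost with RLE factors (-0.98), library totals (-0.79) and DESeq2 (-0.97) and without 10 single libraries (-1.03 to -0.79).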

How the results depend on the processing

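With library totals in place of TMM 7 members were higher and 3 lower after AB42 in GFP-positive cells, 14 were lower after AB42 in GFP-negative cells, 24 were lower in GFP-positive cells after CPP, and 14 had the more positive AB42 effect in GFP-positive cells. The median of all genes then shifted to 0.04, -0.14, -0.47 and 0.15 in those comparisons, and to -0.26 between fractions after AB42. Between fractions after CPP, 3 members called in at least one of these scalings changed sign with library totals: tgfb3 (-0.0020), bmpr2b (-0.39) and acvr1ba (-0.44). So did bmp1a (-0.35), tgfbr2b (-0.23), smad4a (-0.38), smad6a (-0.22) and fsta (-0.12), called in neither. With only the 2 groups compared, 3 members were lower after AB42 in GFP-positive cells. With the replicate number as a block 7 were higher there, and the block moved no other count by over 1.5 times. For each gene the deviation of log CPM from the mean of its group was taken in each library. Between groups, these deviations correlated from -0.021 to 0.092 for same-numbered libraries. Replicate 3 was positive against replicate 3 in every pair of groups (0.060 to 0.092). For libraries of unlike number the correlations of the deviations ran from -0.094 to 0.064. Whether the number marks a shared batch was not tested. Leaving out 1 library gave 2 to 4 members higher and 2 to 5 lower after AB42 in GFP-positive cells, 7 to 10 and 6 to 8 in GFP-negative cells, 26 to 28 and 11 to 14 between fractions after AB42, 22 to 25 and 15 to 17 after CPP, and 3 to 5 and 4 to 8 for the difference of effects. The cause of these shifts was not tested. Members with few counts, such as tgfb1b, gdf6a and grem2b, are limited by depth.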
